A study of Mus musculus with 12 samples.

Results

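The interaction of IL-4/13 with inflammatory cytokines was measured by bulk RNA-seq of 3T3-L1 cells, an established line of mouse embryonic fibroblasts that can become adipocytes. All 12 libraries of the series, of 12 in all, entered the comparison. They form a factorial design of 4 groups with 3 libraries each, and every group was harvested 24 hours after the start of treatment. The control group received no cytokine. The IL-4/13 group received both cytokines at 50 ng/mL. The Inf group received a mix of 20 ng/mL TNF-α, 50 ng/mL IL-17A, and 0.5 ng/mL IL-1β, and the IL-4/13 + Inf group received all of these. Because each mix was given whole, the part of a single cytokine in any effect cannot be told apart. Nothing in the labels says whether the libraries of a group came from separate cultures, so the P values measure only the spread between these libraries.

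IL-4 and IL-13 signal through receptors that share the IL-4Rα chain, which activates JAK kinases and the transcription factor STAT6. TNF-α, IL-1β, and IL-17A act through other receptors whose adaptors converge on NF-κB and MAP kinases, and IL-17A also prolongs the life of some inflammatory mRNAs. In skin, fibroblasts are exposed to both kinds of signal during type 2 inflammation and secrete chemokines, acute phase proteins, and matrix.

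The interaction was taken as the change by IL-4/13 when Inf was present (IL-4/13 + Inf against Inf) minus its change when Inf was absent (IL-4/13 against control). These 2 responses have no library in common. The interaction was taken on 2 scales. On the log2 scale it is 0 when the fold changes of the single treatments multiply, and on the scale of CPM, counts scaled to the library total, it is 0 when their changes add. For each gene, the level in IL-4/13 + Inf was therefore set beside a product (the Inf level times the fold change by IL-4/13 alone) and a sum (the Inf level plus the CPM change by IL-4/13 alone). Of 56941 genes in the table, 14810 passed the filter on low counts and were tested. A gene was called on the log2 scale when its adjusted p (Benjamini-Hochberg) was under 0.05 and the difference exceeded 0.25 (edgeR's quasi-likelihood test), and on the CPM scale when the same held for p and the difference exceeded 1 CPM (limma). Values after ± are standard errors, taken as the absolute log2 difference divided by the square root of edgeR's F statistic, with n = 3 libraries in each group.

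Total counts ranged from 13446005 to 20775769 per library. All 12 fibroblast markers examined were tested, and their summed level ranged from 12100 CPM in IL-4/13 + Inf to 18700 CPM in control. Of 20 macrophage and leukocyte markers, 5 passed the filter, with a summed level of 22.5 CPM in control, 25.1 with IL-4/13, 53.7 with Inf, and 48.6 with both treatments, and no other marker of that list exceeded 5 counts in a library. Neither Ptprc nor Adgre1 passed the filter, and Tyrobp, C1qa, and Cd3e were at 0. No interaction was called among the 5 by edgeR or DESeq2, and 1 had an unadjusted p below 0.05. Replicate 3 of Inf stood apart from the other Inf libraries, with a chi-square per gene of 8.15 and 8.53 against them, where all other pairs within a group lay between 2.27 and 4.64.

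IL-4/13 changed fewer genes without Inf than with it. Without Inf, 412 genes rose and 380 fell (2.78% and 2.57% of tested genes, 5.35% in all), and with Inf, 1118 rose and 1037 fell (7.55% and 7.00%). Of the 412 genes that rose without Inf, 243 also rose with Inf and 6 fell. Their median log2 response was 0.47 without Inf and 0.35 with it. Of the 380 that fell without Inf, 214 also fell with Inf and 4 rose, and their median went from −0.39 to −0.33. The 1118 genes that rose with Inf had a median of 0.15 without Inf and 0.38 with it. For the 1037 that fell with Inf, the medians were −0.19 and −0.43. Each set was picked by its call in a setting, which favours a larger median in that setting. Pearson's r between the responses was 0.404 across all tested genes and 0.792 across the 792 genes called without Inf. It is a description across genes, which are not independent replicates. The interaction term held 4.32% of the sum of squares of log2 CPM, against 61.8% for Inf, 10.8% for IL-4/13, and 2.89% for each residual degree of freedom.

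**Figure D1:**
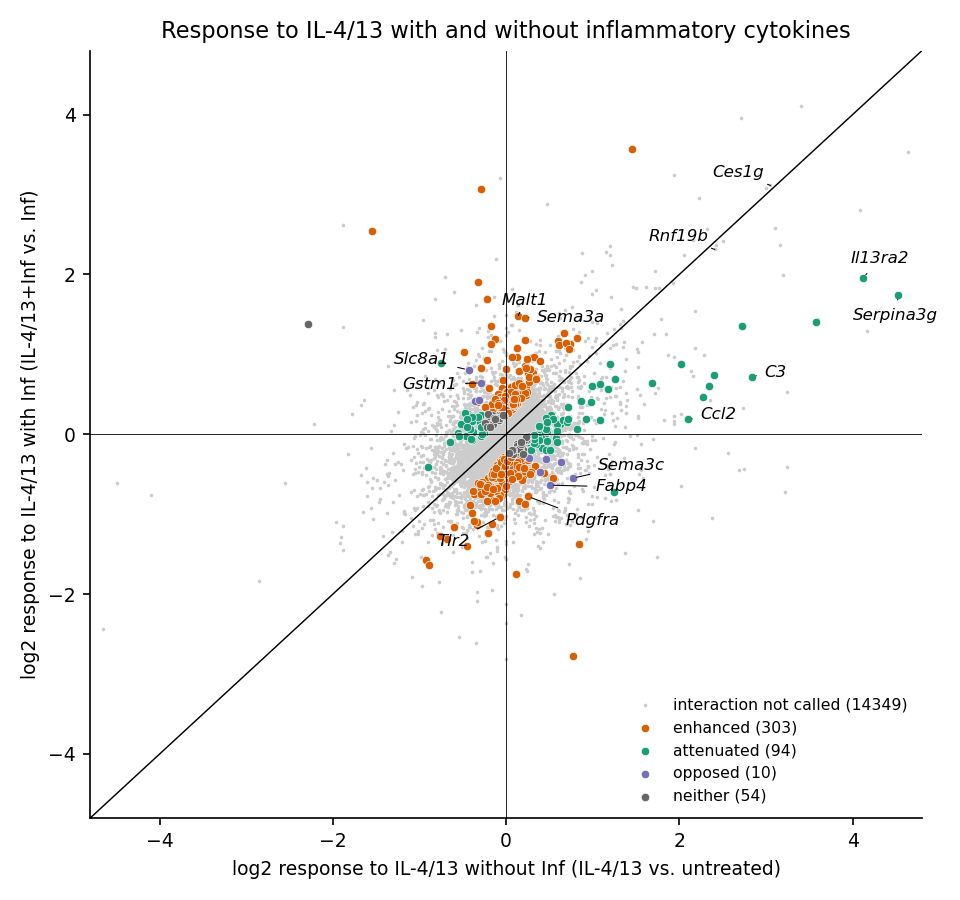
The log2 response to IL-4/13 without Inf (x axis) and with Inf (y axis) is drawn for each tested gene as a point, coloured by class where the interaction was called. Genes on the diagonal responded by the same fold in both settings. The attenuated genes Il13ra2, C3, and Ccl2 lie below it on the right, and 7 genes lie outside the axes.

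On the log2 scale, the interaction was called for 225 genes in the upward direction (1.52%) and 236 in the downward direction (1.59%), 461 in all (3.11%). On the CPM scale it was called for 309 upward (2.09%) and 327 downward (2.21%), 636 in all (4.29%). Without replicate 3 of Inf, these counts were 331 and 322 on the log2 scale and 419 and 392 on the CPM scale. Both scales called 171 genes upward and 178 downward. For 11 genes, the log2 interaction was negative and the CPM interaction positive, so the level in IL-4/13 + Inf was above the sum and below the product. Those were C3, Ccl7, Il13ra2, Nfkb1, Prl2c2, Serpina3f, Serpina3g, Serpina3h, Serpina3i, Slc7a2, and Tnip3. No gene was positive on the log2 scale and negative on the CPM scale.

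The 461 genes fell into classes by their responses. In 303, the response was enhanced with Inf, which means that it was called only with Inf or had the same direction and a larger size there. In 94, it was attenuated, called only without Inf or smaller with it. In 10, it was opposed, called in both settings with opposite signs, and in the remaining 54 neither response passed the threshold. Most enhanced responses were seen only with Inf, with 150 genes that rose and 118 that fell there without a call in the absence of Inf. Because the classes rest on calls, a response that was not called is not thereby shown to be 0.

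In 66 of the 94 attenuated genes, a rise became smaller or was no longer called. A rise that was no longer called could be a fall below the size threshold, as for Cp, Mmp9, and Ccl5. The median log2 response of these 66 was 0.58 without Inf and 0.10 with it. The class was defined by such a drop, so the medians only describe its size. The 10 largest negative interactions that stood without each single library included the decoy receptor Il13ra2, complement C3, the chemokines Ccl2 and Ccl7, and the protease inhibitors Serpina3g and Serpina3f. Each of these 6 genes was raised by IL-4/13 alone and by Inf alone.

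Il13ra2 encodes a receptor that binds IL-13 with high affinity and is known as a decoy. It was at 0.343, 0.496, and 0.3 in control, 5.89, 6.8, and 7.64 with IL-4/13, 59.9, 52.8, and 60.1 with Inf, and 218, 221, and 232 with both treatments (CPM). The 4 groups did not overlap, and the level rose with each treatment. IL-4/13 raised it by 4.12 ± 0.22 on the log2 scale without Inf and by 1.96 ± 0.06 with Inf, an interaction of −2.17 ± 0.26 (adjusted p = 2.40e-06). In CPM, the rise was 6.4 without Inf and 166 with it, a difference of 160 (95% interval, 146 to 173; adjusted p = 5.81e-14). The measured mean of 224 CPM lay between the sum, 64, and the product, 1029. The control level rested on 5 to 8 counts per library. The signalling chains were called too, at smaller sizes: Il4ra at −0.33 and Il13ra1 at −0.28, both downward with neither response called alone.

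C3 encodes the central component of complement. Its CPM values were 5.83, 6.57, and 5.88 in control, 40.8, 43.1, and 47.4 with IL-4/13, 833, 745, and 644 with Inf, and 1198, 1223, and 1248 with both treatments. Again each group stood clear of the others, and the Inf libraries spread the most. The log2 response was 2.84 ± 0.12 without Inf and 0.72 ± 0.07 with it (interaction −2.12 ± 0.15; adjusted p = 2.02e-06). The gain in CPM nevertheless grew from 37.7 to 482, and the mean of 1223 CPM lay between a sum of 778 and a product of 5321.

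Among chemokines, Ccl2 and Ccl7, which attract monocytes, had the largest interactions on the log2 scale. Ccl2 was at 73.6, 66.4, and 61.2 in control, 281, 293, and 289 with IL-4/13, 1937, 1741, and 1935 with Inf, and 2100, 2081, and 2204 with both treatments (CPM). All 4 groups were separate, but the rise by IL-4/13 with Inf was small (0.19 ± 0.05 on the log2 scale, against 2.10 ± 0.05 without Inf). With an adjusted p of 0.0062 by edgeR's test, that rise missed only the size threshold and was not called. The interaction of Ccl2 was −1.91 ± 0.07 on the log2 scale (adjusted p = 2.75e-15). On the CPM scale the rises of 221 and 257 differed by 36.5 (95% interval, −122 to 195; adjusted p = 0.88), and the sum of 2092 was close to the measured 2128. For Ccl7, with means of 37.5, 182, 749, and 1031 CPM (here and from here on in the order control, IL-4/13, Inf, and the combination), the interaction was −1.81 ± 0.07 on the log2 scale (adjusted p = 7.50e-17) and 139 CPM on the other (adjusted p = 0.014). The CPM call for Ccl7 was made in 8 of the 12 fits that left out 1 library, with a difference of 119 to 165 CPM.

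Of 45 chemokine genes listed in the table, 22 were tested. On the log2 scale 5 were called, all downward (22.7%, against 1.59% of all tested genes): Ccl2, Ccl7, Cxcl1, Ccl5, and Cxcl12. Cxcl1, a neutrophil attractant, had means of 7.09, 10.9, 1315, and 1439 CPM and an interaction of −0.49, and Ccl5, a T cell attractant, had means of 15.2, 20.2, 198, and 176 CPM and an interaction of −0.59. The response of Ccl5 with Inf was −0.17 ± 0.06 (adjusted p = 0.028 by edgeR's test), a fall that missed only the size threshold. On the CPM scale 4 were called upward and 5 downward (40.9% in all, against 4.29% of all tested genes), with a median difference of 0.735 CPM over the 22. The eosinophil attractant Ccl11, with means of 0.375, 3.47, 2.3, and 11.7 CPM, gained 6.35 CPM more with Inf (adjusted p = 8.96e-05), while its log2 interaction of −0.80 ± 0.40 was not called (adjusted p = 0.36). Ccl17, a ligand of CCR4, had means of 1.44, 1.21, 9.85, and 17.1 CPM, a CPM difference of 7.53 (adjusted p = 5.37e-04), and a log2 interaction of 1.04 ± 0.32 (adjusted p = 0.068). Neither scale called Ccl8, with means of 1.18, 2.51, 13.5, and 18.4 CPM (log2 interaction −0.60 ± 0.27, adjusted p = 0.29). Ccl8, Ccl11, and Ccl17 were picked from the list after their values were seen.

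The Serpina3 genes encode secreted inhibitors of serine proteases and lie next to each other on mouse chromosome 12. Serpina3g was at 0.343, 0.186, and 0.36 in control, 6, 7.9, and 7.42 with IL-4/13, 13.9, 16.6, and 17.8 with Inf, and 51.2, 53, and 57.6 with both treatments (CPM). All 4 groups were separate and rose in the same order as for Il13ra2. Its interaction was −2.79 ± 0.31 on the log2 scale (adjusted p = 5.85e-07) and 31 CPM on the other (adjusted p = 6.17e-09). Serpina3f had means of 0.197, 2.46, 7.17, and 19 CPM, an interaction of −2.17 ± 0.43, and a CPM difference of 9.58. Serpina3i had no count in control and means of 1.48, 3.85, and 10.9 CPM with IL-4/13, with Inf, and with both, so no log2 value is given for it, and its CPM difference was 5.67 (adjusted p = 5.55e-04). The control levels of Serpina3g and Serpina3f rested on 2 to 6 counts per library. These genes resemble each other, since 10.7% to 16% of the stretches of 50 bases in their longest transcripts also occur in other transcripts, so reads may have been split between them.

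Genes around NF-κB were called downward as well. Of 23 tested subunits and feedback inhibitors, 8 were called on the log2 scale, all downward (34.8%, against 1.59% of all tested genes), and the median interaction over the list was −0.240, against 0 over all genes. Tnip3, an inhibitor that acts with A20, had an interaction of −1.74 ± 0.40 at means of 0.259, 1.38, 20.3, and 30.8 CPM. Nfkbia, which encodes the inhibitor IκBα, was at 39.5, 36.3, and 32.8 in control, 49, 49, and 45.4 with IL-4/13, 282, 249, and 279 with Inf, and 260, 262, and 259 with both treatments (CPM). IL-4/13 raised it by 0.40 ± 0.06 in the absence of Inf and changed it by −0.05 ± 0.05 in its presence, where the ranges overlapped (interaction −0.45 ± 0.08; adjusted p = 7.78e-04). Map3k14, encoding the kinase NIK, was at −0.49, the subunit Relb at −0.40, and Nfkbie, another IκB, at −0.39. With 1 library left out in turn, Relb was called in 5 of 12 fits and Nfkbie in 3, and Tnip3 was lost without replicate 1 or replicate 2 of control.

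Nfkb1, which encodes the p105 precursor of p50, kept most of its response. Its levels in CPM were 197, 188, and 202 in control, 424, 457, and 468 with IL-4/13, 471, 466, and 459 with Inf, and 855, 853, and 863 with both treatments. The level in IL-4/13 matched that in Inf, and both together gave the highest level. The interaction was −0.32 ± 0.06 on the log2 scale (adjusted p = 8.48e-04), and the CPM difference was 138 (adjusted p = 0.001). Bcl3 and Tnfaip3 belong to the same list and are described with the opposed and enhanced genes. Nfkb1 and Nfkbie fall outside the rule by which genes were named and were chosen after their values were seen.

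The promoters of some attenuated genes are shown because they hold sequences related to those that STAT factors and NF-κB are known to bind. Promoters came from RefSeq (GRCm38.p6), where 9936 of the tested genes were matched by symbol, and windows of 250 bases before to 50 after each start were searched on both strands for TTCNNNGAA, TTCNNNNGAA, and the NF-κB consensus. Overlapping matches were kept, and a gene with several starts counted once if any window held a match. Of the 42 attenuated genes with a smaller rise that were matched, 10 (23.8%) held TTCNNNGAA and 10 (23.8%) held the NF-κB consensus, against 8.2% and 6.4% of all matched tested genes and 8.3% and 4.5% of all 32851 promoters in the table. TTCNNNNGAA, the spacing that STAT6 prefers, was in 4.8% of them, in 6.7% of matched tested genes, and in 7.0% of all promoters. All of these attenuated genes belong to the genes raised by IL-4/13 without Inf. Of the 299 such genes that were matched, 14.4% held TTCNNNGAA, 13.0% held TTCNNNNGAA, and 10.7% held the NF-κB consensus. Part of the share among attenuated genes is thus also seen in raised genes as a whole. A match is a description of the letters and not of a bound site. The 250 bases before the start are printed 5′ to 3′, with matches in capitals. The Serpina3g promoter, chr12:104235897-104236146 on the + strand, holds an NF-κB match 85 bases and a TTCNNNGAA match 33 bases before the start. The Serpina3f promoter, chr12:104214294-104214543 on the + strand, holds a single TTCNNNGAA match 121 bases before the first of its 2 starts. The promoters of Tnip3, chr6:65590148-65590397 on the + strand, Nfkbia, chr12:55492648-55492897 on the − strand, and Cxcl1, chr5:90890995-90891244 on the + strand, hold NF-κB matches, and the 2 in Cxcl1 are shifted by 1 base.
Serpina3g: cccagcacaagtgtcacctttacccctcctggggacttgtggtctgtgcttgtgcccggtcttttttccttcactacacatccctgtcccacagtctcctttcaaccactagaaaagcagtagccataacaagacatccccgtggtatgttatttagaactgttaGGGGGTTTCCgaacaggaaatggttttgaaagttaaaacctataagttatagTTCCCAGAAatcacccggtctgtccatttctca
Serpina3f: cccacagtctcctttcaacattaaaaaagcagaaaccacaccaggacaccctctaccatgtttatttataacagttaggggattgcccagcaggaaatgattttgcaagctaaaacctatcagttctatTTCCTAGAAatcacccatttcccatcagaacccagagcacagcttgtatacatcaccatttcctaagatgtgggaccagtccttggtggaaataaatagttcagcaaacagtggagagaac
Tnip3: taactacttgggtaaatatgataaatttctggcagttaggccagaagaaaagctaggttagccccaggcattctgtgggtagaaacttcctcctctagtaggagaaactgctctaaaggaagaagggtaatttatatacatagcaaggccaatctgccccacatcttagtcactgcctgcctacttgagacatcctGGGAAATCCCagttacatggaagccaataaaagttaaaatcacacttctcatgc
Nfkbia: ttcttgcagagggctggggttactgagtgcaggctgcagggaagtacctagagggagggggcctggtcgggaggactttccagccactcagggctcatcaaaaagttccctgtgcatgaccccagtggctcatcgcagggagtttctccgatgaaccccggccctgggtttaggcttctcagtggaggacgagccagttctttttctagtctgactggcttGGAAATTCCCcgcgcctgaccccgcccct
Cxcl1: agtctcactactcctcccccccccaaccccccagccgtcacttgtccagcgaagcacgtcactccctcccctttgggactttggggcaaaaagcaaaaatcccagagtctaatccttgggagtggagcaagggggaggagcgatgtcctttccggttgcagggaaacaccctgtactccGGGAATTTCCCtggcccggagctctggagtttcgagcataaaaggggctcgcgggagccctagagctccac

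Other attenuated rises belonged to various pathways. Il1rap, the shared accessory chain of the IL-1 and IL-33 receptors, had means of 63.8, 144, 162, and 240 CPM. Its log2 interaction was −0.62 ± 0.07 (adjusted p = 1.60e-06), whereas the CPM rises of 80.6 and 77.6 differed by −3.09 (95% interval, −21.1 to 14.9). The arginine transporter Slc7a2 (−1.04), the transcription factor Hlf (−1.67), and the prolactin-like Prl2c3 (−1.37) were also called on the log2 scale. In Prl2c3, 78.6% of the 50-base stretches occur in other transcripts, Prl2c2 among them, so its value may mix relatives. Loxl2 (−1.97), of which 45.8% is shared, was called at low counts. Further attenuated genes, with a rise called only without Inf, were the protease Mmp9 (−0.70), ceruloplasmin Cp (−0.66), the lipase inhibitor Angptl4 (−0.62), Fgf7 (−0.42), and Il6ra (−0.42). With Inf, the response of Cp was −0.20 ± 0.04 (adjusted p = 5.57e-04 by edgeR's test). That of Mmp9 was −0.19 ± 0.06 (adjusted p = 0.012 by the same test). Both were thus falls that missed only the size threshold.

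Lox, which encodes lysyl oxidase, the enzyme that crosslinks collagen, was attenuated on both scales. Its CPM values were 956, 936, and 971 in control, 1883, 1882, and 1875 with IL-4/13, 1499, 1619, and 1551 with Inf, and 2091, 2039, and 2054 with both treatments. The groups did not overlap. The CPM rise was 926 without Inf and 505 with it, a difference of −421 (95% interval, −569 to −273; adjusted p = 4.68e-04), and the mean of 2061 lay below both the sum of 2482 and the product of 3066.

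In 28 attenuated genes, it was a fall that became smaller or was no longer called. Dlk1, an inhibitor of adipocyte differentiation also known as Pref-1, had the largest CPM difference in the upward direction. Its CPM values were 1651, 1552, and 1691 in control, 1142, 1133, and 1094 with IL-4/13, 801, 730, and 790 with Inf, and 799, 758, and 723 with both treatments. IL-4/13 changed it by −508 CPM without Inf, where the groups were apart, and by −13.8 CPM with Inf, where they overlapped. The interaction was 0.51 ± 0.06 (adjusted p = 1.80e-06), and the CPM difference was 495 (95% interval, 379 to 610). The stress response genes Chac1 (0.52) and Trib3 (0.54), the MAP kinase phosphatase Dusp4 (0.53), the early response gene Ier2 (0.39), Spry1 (0.50), Il17rd (0.69), lamin A/C Lmna (0.27), and the proteoglycan Fmod (1.65, at low counts) were in this class too. The response of Chac1 with Inf was 0.21 ± 0.07 (adjusted p = 0.031 by edgeR's test), a rise that missed only the size threshold.

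**Figure D2:**
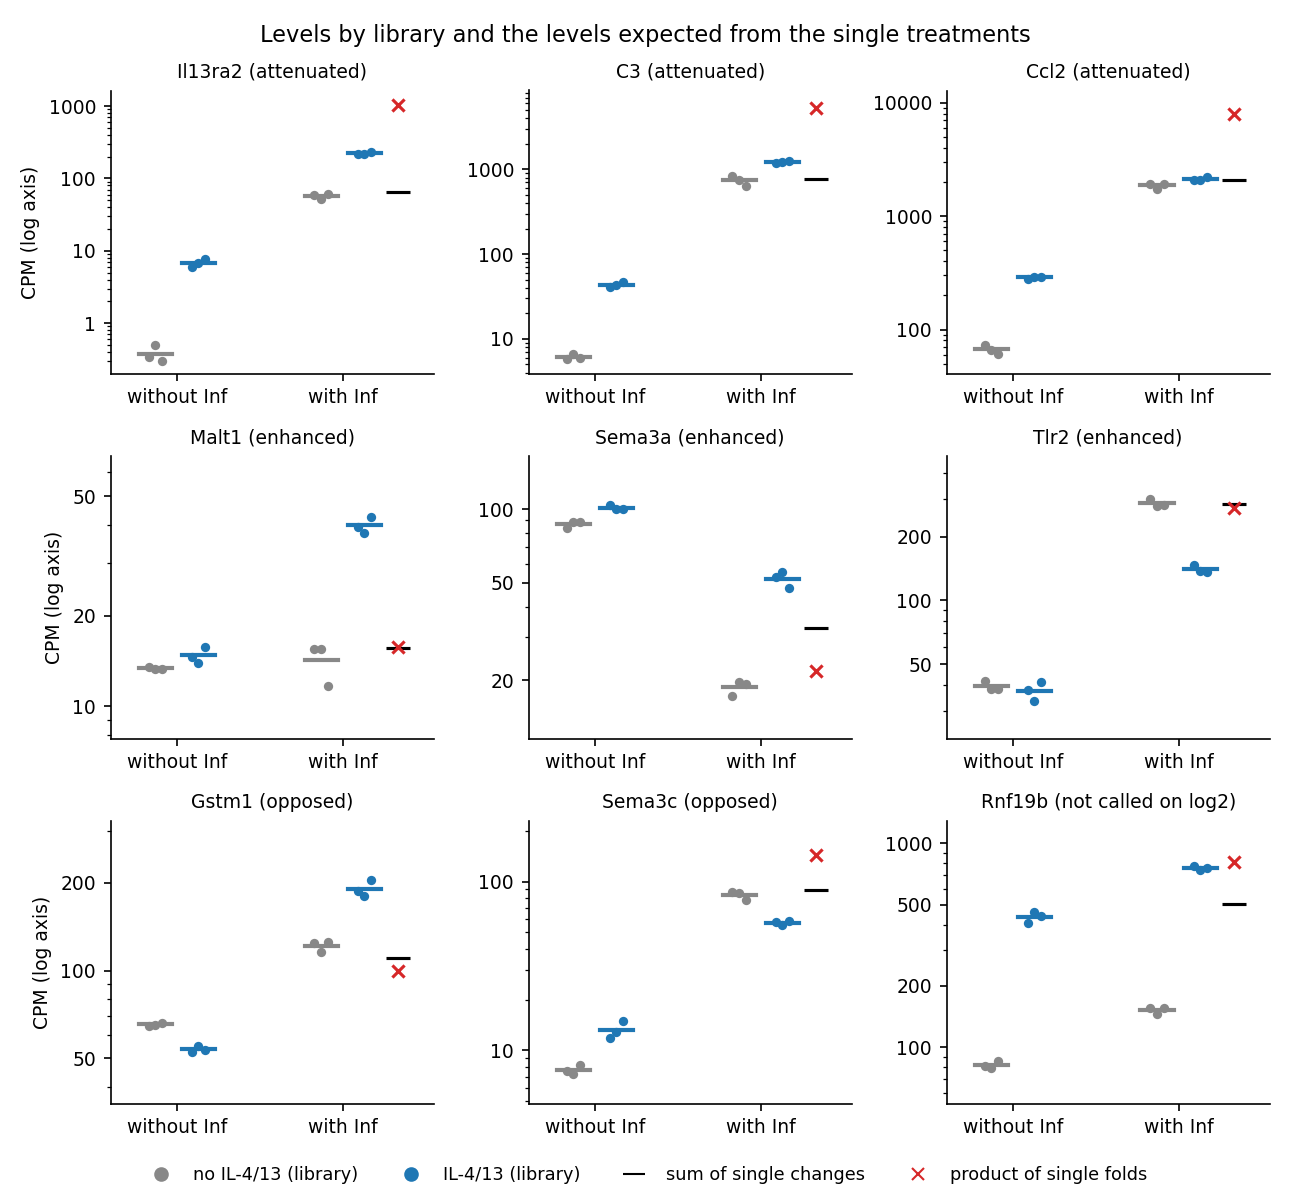
CPM of 9 genes is drawn on log axes, with a point for each library, a bar for each group mean, a black dash for the sum of the single changes, and a red cross for the product of the single folds. Il13ra2 and C3 lie between dash and cross, Ccl2 sits on the dash, Malt1 and Sema3a lie above both, Tlr2 lies below both, and Rnf19b lies near the cross.

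Enhanced rises were called in 167 genes, Malt1 among them. Malt1 encodes the paracaspase that cleaves inhibitors of NF-κB in receptor signalling. It was found at 13.5, 13.3, and 13.3 in control, 14.6, 13.9, and 15.7 with IL-4/13, 15.5, 15.5, and 11.7 with Inf, and 39.5, 37.8, and 42.7 with both treatments (CPM). The 3 libraries of IL-4/13 + Inf stood far above the other 9, among which Inf overlapped both control and IL-4/13. The response was 0.14 ± 0.10 without Inf and 1.49 ± 0.09 with it, an interaction of 1.34 ± 0.14 (adjusted p = 1.60e-07). The mean of 39.98 CPM was above a sum of 15.6 and a product of 15.7.

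Sema3a, a secreted guidance molecule, changed along another course. Its CPM values were 83.5, 88.9, and 89.1 in control, 104, 99.8, and 100 with IL-4/13, 17.3, 19.7, and 19.4 with Inf, and 52.7, 55.3, and 47.5 with both treatments. Inf lowered it, and IL-4/13 brought back part of that loss, so that IL-4/13 + Inf lay between Inf and control. The log2 response was 0.22 ± 0.06 without Inf and 1.46 ± 0.07 with it (interaction 1.25 ± 0.09; adjusted p = 1.48e-10). The transcriptional regulator Id2, with means of 17.2, 13.9, 8.55, and 15.2 CPM, was lowered by Inf too and returned with IL-4/13 to a level that overlapped control, with an interaction of 1.12 ± 0.17. The membrane lectin Clec14a, with means of 6.18, 4.46, 3.21, and 6.57 CPM, and Reep6, with means of 6.18, 4.72, 3.46, and 5.34 CPM, followed the same course, with interactions of 1.51 ± 0.24 and 1.02 ± 0.23. Of these 4 genes, Clec14a was called above each single treatment when both were given.

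The planar polarity gene Prickle1 and the proteoglycan Prelp resembled Malt1 instead. Prickle1 was at 9.94, 9.99, and 10.7 in control, 9.59, 7.9, and 9.7 with IL-4/13, 9.44, 10.1, and 8.91 with Inf, and 20.03, 19.3, and 23.1 with both treatments (CPM), and Prelp had means of 18, 19.8, 17.1, and 36.2 CPM. Every library with both treatments lay above every other library for both genes. Their interactions were 1.30 ± 0.16 and 0.95 ± 0.12 (adjusted p = 2.49e-06 and 4.26e-06). Slc15a2, a peptide transporter, had means of 2.78, 2.37, 7.43, and 14.2 CPM and an interaction of 1.16 ± 0.23. The neurotrophin receptor Ntrk3 (1.32) was called as well.

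Several growth and remodelling genes rose in both settings and more with Inf. Ptgs2, which encodes cyclooxygenase 2, was at 138, 132, and 142 in control, 177, 181, and 181 with IL-4/13, 418, 367, and 353 with Inf, and 698, 702, and 748 with both treatments (CPM). IL-4/13 raised it in both settings with no overlap. The log2 response was 0.39 ± 0.05 without Inf and 0.92 ± 0.05 with it, an interaction of 0.53 ± 0.07 (adjusted p = 1.53e-05), and the CPM difference was 295 (95% interval, 248 to 342), above both expectations. Ptgs2 was the only upward call among the 28 tested textbook targets of TNF, IL-1, and IL-17, on the log2 scale, against 6 downward calls (25.0% in all, against 3.11% of all tested genes). On the CPM scale, 5 of the 28 were called upward and 10 downward (53.6%, against 4.29%). The integrin Itgb5 (0.45), the growth factor Hbegf (0.56), and the mechanical stress gene Ankrd1 (0.65) were likewise raised by IL-4/13 in both settings and more on the log2 scale with Inf, although Inf lowered Hbegf and Ankrd1. For Hbegf, the CPM rises of 20.3 and 21.6 differed by 1.29 (adjusted p = 0.89). Adamts1 (0.64) and the urokinase receptor Plaur (0.50) were called with Inf only.

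Of 16 tested genes of nitric oxide and arginine metabolism, 3 were called upward, Odc1, Srm, and Slc7a1, and the arginine transporter Slc7a2 was called downward (25.0% in all, against 3.11% of all tested genes). Odc1, encoding ornithine decarboxylase, had means of 156, 167, 134, and 184 CPM and an interaction of 0.36 ± 0.07 (adjusted p = 0.0013). Because 42.2% of its 50-base stretches occur in other transcripts, pseudogenes may share its reads. Spermidine synthase Srm (0.40) and another arginine transporter, Slc7a1 (0.45), were enhanced upward too. The replication helicase genes Mcm2 (0.29) and Mcm6 (0.30) were the only calls among 30 replication genes (6.67%), and Ifit2 (0.35) was the only call among 37 interferon-stimulated genes (2.7%), against 3.11% of all tested genes. The receptor Tgfbr2 was at 0.28.

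Of the 136 enhanced falls, that of Tlr2 is given first. Tlr2 encodes a receptor for bacterial lipopeptides. Its levels in CPM were 41.7, 38.1, and 38.1 in control, 37.8, 33.4, and 41.2 with IL-4/13, 301, 278, and 283 with Inf, and 147, 138, and 136 with both treatments. Without Inf the groups overlapped, and with Inf every library with IL-4/13 lay below every library without it. The response was −0.07 ± 0.07 without Inf and −1.04 ± 0.05 with it, an interaction of −0.96 ± 0.09 (adjusted p = 7.41e-09). The mean of 140 CPM was below a sum of 286 and a product of 274. Tlr2 was chosen after its values were seen. Of the 104 enhanced falls that were matched, 9 (8.7%) held the NF-κB consensus, near the 6.4% of all matched tested genes. The Tlr2 promoter, chr3:83841609-83841858 on the − strand, thus does not stand for the class. It is shown because it holds NF-κB matches. There are 2 overlapping ones that begin 173 and 172 bases before the start, in capitals, and 1 across the start, which is not marked.
Tlr2: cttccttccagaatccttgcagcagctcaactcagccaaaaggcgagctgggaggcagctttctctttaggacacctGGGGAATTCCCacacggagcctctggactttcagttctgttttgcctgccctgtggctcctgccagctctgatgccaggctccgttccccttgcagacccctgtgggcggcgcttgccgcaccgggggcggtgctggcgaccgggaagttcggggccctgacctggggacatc

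Pdgfra encodes the PDGF receptor that marks fibroblasts. It was at 198, 193, and 197 in control, 233, 220, and 246 with IL-4/13, 424, 388, and 342 with Inf, and 209, 225, and 240 with both treatments (CPM). Inf raised it, and with IL-4/13 added it came back near the level of IL-4/13 alone. The interaction was −1.02 ± 0.09 (adjusted p = 2.57e-06), and the CPM difference was −197 (95% interval, −232 to −161). The cholesterol exporter Abca1 was at 22.9, 18.8, and 24.1 in control, 18, 18.1, and 21.1 with IL-4/13, 55.9, 53, and 42.6 with Inf, and 22.1, 21.2, and 20.9 with both treatments (CPM). With both treatments it overlapped control and IL-4/13, and its interaction was −1.02 ± 0.14 (adjusted p = 4.82e-05).

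The chemokine Cxcl12, which retains stem cells and lymphocytes in tissues, was not called for either treatment alone. It was at 334, 349, and 339 in control, 334, 331, and 299 with IL-4/13, 332, 358, and 339 with Inf, and 195, 201, and 195 with both treatments (CPM). The Inf libraries overlapped control and IL-4/13, and all 3 of IL-4/13 + Inf lay below the rest. The interaction was −0.72 ± 0.06 (adjusted p = 7.41e-09), with a CPM difference of −127 (95% interval, −158 to −95.5). Tnfaip3, which encodes A20, the ubiquitin-editing inhibitor of NF-κB, fell only with Inf, at means of 12.3, 14, 84, and 62.7 CPM and an interaction of −0.63 ± 0.12 (adjusted p = 0.0016).

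Of 26 tested NRF2 targets and metallothioneins, 6 were called downward and 1 upward (26.9% in all, against 3.11% of all tested genes). Fth1, the ferritin heavy chain, was at 1899, 1792, and 1828 in control, 1658, 1631, and 1685 with IL-4/13, 5421, 4753, and 5098 with Inf, and 3697, 3565, and 3805 with both treatments (CPM). Its log2 interaction was −0.31 ± 0.06 (adjusted p = 6.85e-04), and at this high level the CPM difference was −1219. Heme oxygenase Hmox1 (−0.46), metallothionein Mt1 (−0.37), the quinone reductase Nqo1 (−0.34), Gclm (−0.31), and the superoxide dismutase Sod2 (−0.28), which was chosen after its values were seen, also had negative interactions, and Gstm1 was the upward call. Gclm was not called in either single response.

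Among growth factors and receptors, 5 of 32 were called downward and 1 upward (18.8%, against 3.11% of all tested genes). With Pdgfra and Fgf7 these were Angpt1 (−0.65), Gdnf (−0.58), and Fgf10 (−0.32), and Hbegf was the upward call. Of the 12 fibroblast markers, 3 were called, all downward (25.0%, against 1.59% of all tested genes): Pdgfra, Postn (−0.42), and Dcn (−0.26). Dcn, encoding the proteoglycan decorin, had means of 103, 101, 1756, and 1440 CPM. In the matrix, Mmp2 (−0.36), Adamts7 (−0.58), Ccn5 (−0.75), and Tgfbi (−0.71) were enhanced downward, as were the cathepsin Ctsl (−0.29), the oncostatin receptor Osmr (−0.46), the regulator Id3 (−0.42), and the prostaglandin receptor Ptgfr (−0.75). The hypoxia genes Bnip3 (−0.44) and Pdk1 (−0.29) and the adaptor Pid1 (−0.95) completed the named falls. Lbp, the lipopolysaccharide-binding protein, had at most 3 counts in each control library. It was at 0, 0.186, and 0.18 in control, 0.268, 0.13, and 0.221 with IL-4/13, 9.44, 6.62, and 5.82 with Inf, and 0.893, 1.74, and 0.472 with both treatments (CPM), so that IL-4/13 lowered it with Inf without overlap, and its CPM difference was −6.3 (95% interval, −8.1 to −4.49).

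Opposed genes changed direction. IL-4/13 raised 6 genes without Inf and lowered them with it, and lowered 4 without Inf and raised them with it. Sema3c, a guidance molecule related to Sema3a, was at 7.6, 7.26, and 8.16 in control, 11.8, 12.8, and 14.9 with IL-4/13, 87.3, 85.9, and 77.8 with Inf, and 58, 55.1, and 58.6 with both treatments (CPM). IL-4/13 lifted it above control and pushed it below Inf, with no overlap in either setting. The responses were 0.77 ± 0.10 and −0.55 ± 0.07, and the interaction was −1.32 ± 0.12 (adjusted p = 1.63e-08). Fabp4, a fatty acid binding protein of adipocytes, was at 12.2, 10.7, and 11 in control, 13.5, 14.8, and 20.4 with IL-4/13, 29.4, 28.7, and 32.2 with Inf, and 19.5, 17.4, and 21.3 with both treatments (CPM). It was the only one of 8 adipocyte markers that passed the filter, and none of the others exceeded 3 counts in a library. Its responses were 0.50 ± 0.12 and −0.64 ± 0.11, with an interaction of −1.14 ± 0.16 (adjusted p = 6.26e-05).

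Bcl3, an IκB protein that acts in the nucleus, was at 15.5, 16.8, and 13.6 in control, 23.4, 24.5, and 23.7 with IL-4/13, 67.9, 60.5, and 65.4 with Inf, and 49.3, 52, and 51.5 with both treatments (CPM). It too rose without Inf and fell with it, and its interaction was −0.98 ± 0.11 (adjusted p = 3.98e-07). In the other direction, the glutathione transferase Gstm1 was at 64.7, 65.1, and 66.3 in control, 52.5, 55, and 53.6 with IL-4/13, 124, 116, and 125 with Inf, and 187, 180, and 204 with both treatments (CPM). IL-4/13 lowered it below control and raised it above Inf, so IL-4/13 + Inf was the highest group. The interaction was 0.93 ± 0.08 (adjusted p = 2.03e-09), and 23.1% of its 50-base stretches occur in other transcripts. The sodium-calcium exchanger Slc8a1, at 28.3, 29.5, and 28.8 in control, 21.6, 22.2, and 20.3 with IL-4/13, 13.4, 14.3, and 11.7 with Inf, and 23.5, 24, and 21.6 with both treatments (CPM), had an interaction of 1.24 ± 0.12 (adjusted p = 6.44e-08). Slc7a5, a large neutral amino acid transporter chosen after its values were seen, had means of 453, 365, 171, and 231 CPM and an interaction of 0.74 ± 0.07.

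**Figure D3:**
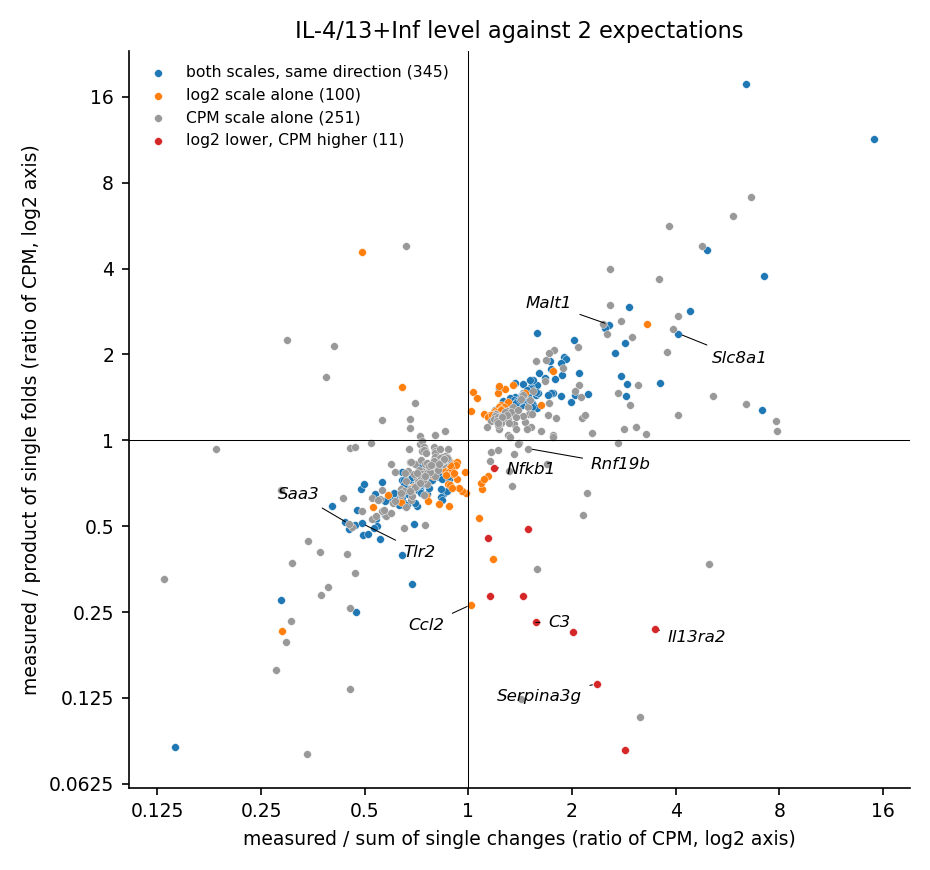
For each gene called on either scale, the IL-4/13 + Inf level is divided by the sum of single changes (x axis) and by the product of single folds (y axis), both on log2 axes. Red points, above the sum and below the product, include C3, Il13ra2, and Serpina3g, and 30 genes with an expectation or level at or below 0 were left out.

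The scale decided the call for many genes. The CPM scale alone called 127 genes upward and 149 downward. Rnf19b, which encodes a ubiquitin ligase, was at 80.8, 79.5, and 85.9 in control, 406, 460, and 442 with IL-4/13, 155, 146, and 156 with Inf, and 771, 744, and 754 with both treatments (CPM). IL-4/13 raised it by nearly the same fold in both settings, 2.41 ± 0.05 and 2.31 ± 0.05 on the log2 scale, and the log2 interaction was −0.10 ± 0.07 (adjusted p = 0.59). The CPM rise was 354 without Inf and 604 with it, a difference of 250 (95% interval, 204 to 296), and the mean of 756 was close to the product of 809. Il1rl1, the IL-33 receptor, had means of 549, 1323, 882, and 1930 CPM, a log2 interaction of −0.14 ± 0.06 (adjusted p = 0.24), and a CPM difference of 274 (adjusted p = 0.0072). The carboxylesterase Ces1g, chosen after its values were seen, had means of 3.9, 32.6, 7.26, and 63.2 CPM, next to a product of 60.6. The cytokine Lif and the STAT-induced feedback inhibitor Cish, also chosen after their values were seen, gained 37.9 and 17.5 CPM more with Inf (adjusted p = 5.20e-05 and 3.08e-06), with log2 interactions of −0.36 ± 0.11 and 0.27 ± 0.23 that were not called. The collagen chaperone Serpinh1 was called on the CPM scale alone too, at 210 CPM, in 5 of the 12 fits that left out 1 library. Its log2 interaction of 0.23 had an adjusted p of 0.006 by edgeR's test and missed only the size threshold.

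A gene lowered by Inf can rise by a similar fold and still gain less in CPM. Masp1, a protease of the lectin pathway of complement, was at 55.1, 50.6, and 60.1 in control, 171, 172, and 163 with IL-4/13, 19.2, 22.1, and 21.6 with Inf, and 78.2, 77.3, and 70.3 with both treatments (CPM). The log2 response to IL-4/13 was 1.61 ± 0.06 without Inf and 1.84 ± 0.07 with it (log2 interaction 0.23 ± 0.09; adjusted p = 0.22), while the CPM difference was −59.2 (95% interval, −71.3 to −47.1). Masp1 was chosen after its values were seen.

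Several inflammatory genes that were raised by Inf and not called for IL-4/13 alone had large CPM differences without a log2 call. Saa3, a serum amyloid A protein of the acute phase, was at 0.4, 0.248, and 0.12 in control, 0.107, 0.13, and 0.441 with IL-4/13, 5628, 4829, and 5276 with Inf, and 2213, 2218, and 2644 with both treatments (CPM). It rested on 2 to 7 counts per library in control, and with Inf IL-4/13 lowered it in all 3 libraries below the lowest Inf library. The CPM difference was −2886 (95% interval, −3294 to −2477; adjusted p = 4.82e-09), and a log2 interaction was not detectable at this depth (−0.86 ± 0.99; adjusted p = 0.79). The siderophore-binding Lcn2, with means of 0.181, 0.269, 1252, and 937 CPM (CPM difference −315), haptoglobin Hp, chosen after its values were seen, with 0.298, 0.523, 300, and 137 CPM (CPM difference −164), and stromelysin Mmp3, with 23.5, 23.8, 1375, and 1097 CPM (CPM difference −278), were called downward on the CPM scale alone as well. Saa3, Lcn2, and Hp were below 1 CPM without Inf, so their CPM difference nearly equals the change by IL-4/13 with Inf. It cannot tell whether Inf altered the fold response to IL-4/13. The glycolytic Tpi1 had a CPM difference of −244 on a log2 interaction of −0.21, which missed only the size threshold (adjusted p = 0.021 by edgeR's test). Over 14 tested acute phase genes, 5 were called downward on the log2 scale (35.7%), and on the CPM scale 4 were called upward, all of the Serpina3 family, and 6 downward (71.4%, against 4.29% of all tested genes). Its log2 calls were Serpina3g, Serpina3f, Serpina3i, Cp, and Lbp, of which Serpina3i and Lbp had too few control counts for a fold.

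The level with both treatments was compared with each single treatment as well. It was above both for 253 genes (1.71%) and below both for 213 genes (1.44%). Of the genes above both, 44 were enhanced upward, 15 were attenuated, 1 was opposed, and 193 were not called for the log2 interaction. Il13ra2, C3, Serpina3g, Nfkb1, and Ccl7 were thus at their highest with both treatments although their log2 response to IL-4/13 was smaller with Inf. Of the genes below both, 30 were enhanced downward on the log2 scale, among them Cxcl12, Postn, Tgfbi, Angpt1, and Ptgfr. Postn, Tgfbi, and Angpt1 were not called on the CPM scale. Their CPM differences were 10.4, −5.31, and −2.54 (adjusted p = 0.80, 0.60, and 0.56 by limma).

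**Figure D4:**
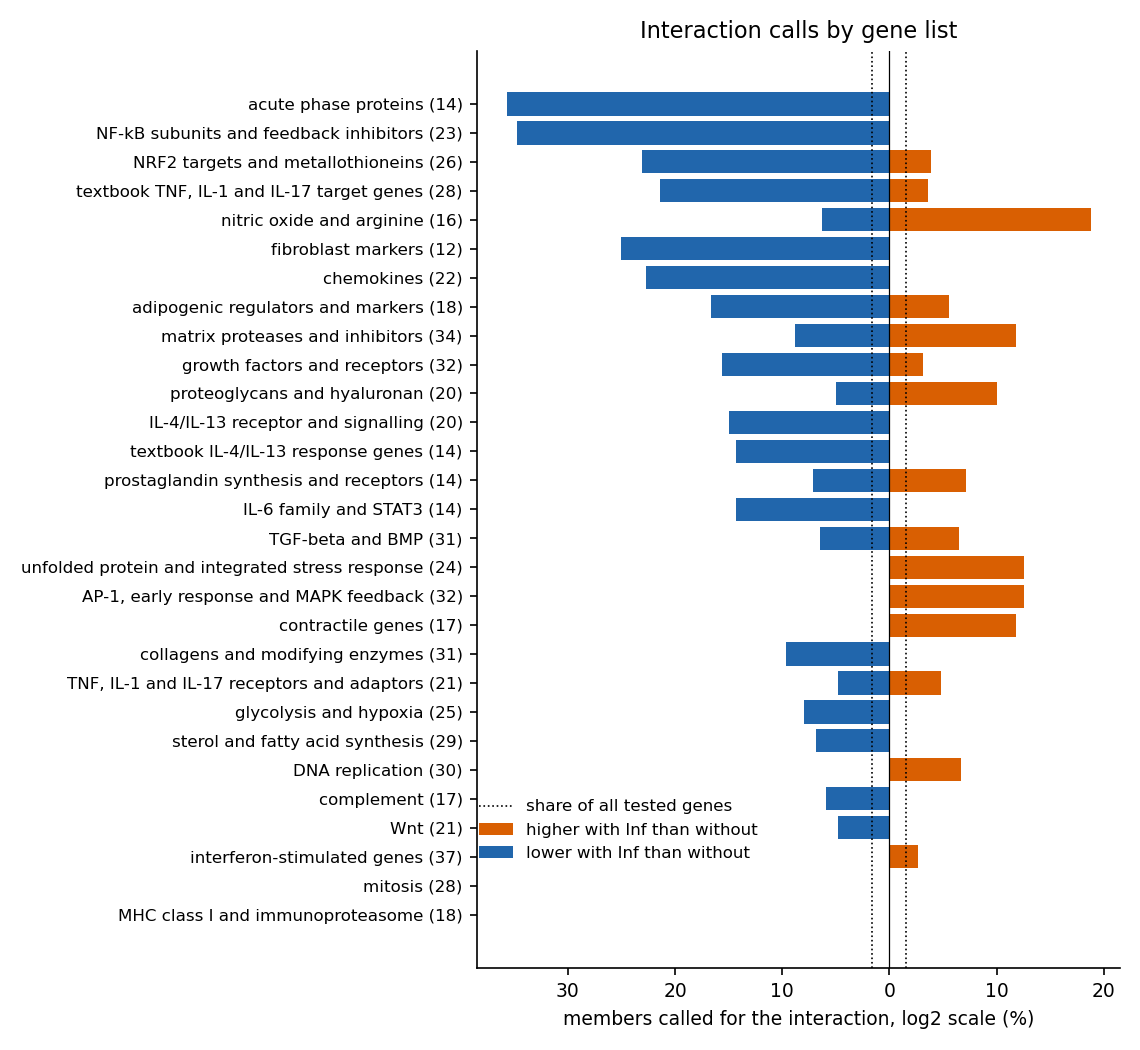
Bars give the share of tested members called for the log2 interaction in 29 gene lists, upward to the right and downward to the left, with the number tested in parentheses and dotted lines at the shares of all tested genes. Acute phase and NF-κB genes have the largest downward shares, at 35.7% and 34.8%, and mitosis and MHC class I genes have none. The acute phase share includes Serpina3i and Lbp, which had too few control counts for a fold.

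The shares in the remaining lists stand against 1.52% upward and 1.59% downward over all tested genes. The unfolded protein and integrated stress response had 3 of 24 called upward, Chac1, Trib3, and Atf5 (0.41), and early response and MAPK feedback genes had 4 of 32, Dusp4, Ier2, Spry1, and Egr1 (0.41). Among matrix proteases and the genes that act with them, Adamts1, Plaur, and Adamts5 (0.31, chosen after its values were seen) were called upward, and Mmp2, Adamts7, and Mmp9 were called downward. Among 31 genes for collagens and their enzymes, Lox, Loxl2, and Col6a1 (−0.29) were called downward. Contractile genes had 2 of 17 upward, Ankrd1 and Srf (0.26), and sterol synthesis had 2 of 29 downward, Abca1 and Nsdhl (−0.29). By edgeR's test, no interaction was called among 28 mitosis genes (median 0.080) or 18 genes of MHC class I presentation (median 0.138), and DESeq2 called 0 in both lists. Without adjustment, 8 of the 28 and 1 of the 18 had p below 0.05, as had 2101 of all tested genes. The largest differences among genes with neither response called were those of Pcca (0.45), Shox2 (−0.45), Mfap3l (0.43), Arl4c (0.41), and Egr1. In Shox2, Arl4c, and Egr1, both responses had an adjusted p under 0.05 by edgeR's test, with opposite signs. They missed only the size threshold. In Pcca and Mfap3l, this held only for the response with Inf.

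Lists named for the treatments themselves and for the fibroblast fate held the following, against 3.11% of all tested genes on the log2 scale and 4.29% on the CPM scale. Of 14 tested textbook targets of IL-4/13, 2 were called downward on the log2 scale, Il13ra2 and Postn (14.3%), and 6 were called upward on the CPM scale (42.9%). Of 20 genes for IL-4/13 receptors and signalling, the 3 calls were Il13ra2, Il4ra, and Il13ra1 (15%). Among 21 receptors and adaptors of TNF, IL-1, and IL-17, Il17rd was called upward and Il1rap downward (9.52%). Complement held 1 log2 call of 17, C3 (5.88%), whereas 7 were called downward and 1 upward on the CPM scale (47.1%). The IL-6 family had Il6ra and Osmr downward of 14 (14.3%), prostaglandin genes had Ptgs2 upward and Ptgfr downward of 14 (14.3%), and TGF-β and BMP genes had Id2 and Tgfbr2 upward and Id3 and Tgfbi downward of 31 (12.9%). Proteoglycans had Prelp and Fmod upward and Dcn downward of 20 (15%), adipogenic genes had Dlk1 upward and Fabp4, Pid1, and Angptl4 downward of 18 (22.2%), Wnt genes had Ccn5 downward of 21 (4.76%), and glycolysis and hypoxia genes had Bnip3 and Pdk1 downward of 25 (8.0%).

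Some of the calls above were near the thresholds. When each library was left out in turn, every interaction kept its sign, but the log2 call was not made in all 12 fits for 29 genes. It was made in 1 of 12 for Mfap3l, 3 of 12 for Nfkbie and Spry1, 4 of 12 for Fgf10, Il6ra, Pcca, Pid1, and Srf, 5 of 12 for Ifit2, Il13ra1, Lbp, and Relb. It was made in 6 for Gclm, 7 for Adamts5 and Fmod, 8 for Il4ra, 9 for Dcn, Lmna, Nqo1, and Ntrk3, and in 10 for Tnip3, 11 for Angpt1, Col6a1, Ctsl, Id3, Ier2, Loxl2, Sod2, and Tgfbr2. For Col6a1, Ctsl, Dcn, Lmna, and Sod2, the adjusted p of edgeR's test stayed under 0.05 in all 12 fits, so their calls were lost on size alone. On the CPM scale the call was made in fewer than 6 fits for Ccl5, Gclm, Mcm2, Mfap3l, Ptgfr, Serpinh1, and Tpi1.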

How the data were processed

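Poly(A) RNA of 12 libraries was sequenced with strand kept. The authors deposited 1 table of raw counts per gene, and per the submitters' processing notes the tools were STAR and featureCounts with genome GRCm39 (versions not given in the sources used here). No column of other samples was present. All 12 columns were matched to libraries by name, and all carry 1 batch label. The members and gene lists were chosen with earlier results of these data known.

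Genes were filtered with filterByExpr of edgeR 4.0.16 (at least 10 counts, 15 in total), scaled by TMM, and tested with robust quasi-likelihood fits over the 4 groups in R 4.3.3. CPM were computed from the counts and the library totals scaled by TMM. The CPM interaction was tested with limma 3.58.1, weighting each value by the inverse of its variance from the edgeR trend. Benjamini-Hochberg adjustment covered all 14810 tested genes. Calls used an adjusted p of 0.05 and differences of 0.25 on the log2 scale or 1 CPM. No fold was given for a gene with at most 3 counts in each library of some group. The fits were tested on simulated counts. DESeq2 1.42.0, other scalings and filters, other thresholds, leaving out each library, and a replicate block were alternatives.

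Genes named were the 10 largest log2 interactions each way that were called without each single library at 5 CPM or more in a group, the 8 largest CPM differences each way, the 5 largest of each class, and at most 6 called members of each list. A gene that this rule names is not reported here. Promoters came from RefSeq tables of GRCm38.p6, which is not the build of the counts, and were matched by symbol. Same-numbered libraries did not deviate together (correlations of −0.146 to 0.0543, against −0.109 to 0.16 for other numbers), so the main fits did not pair them. Whether they were paired in the experiment is not known from these values.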

Additional observations from a re-analysis of the deposited data

Results flagged for a closer look

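The response to IL-4/13 differed between libraries with and without Inf for each of the genes named here, as tested by the interaction contrast in edgeR, adjusted over all tested genes. The values are the log2 response with Inf minus that without it. Groups of 3 libraries are too small for a test of single outlying libraries.

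The response was higher with Inf by more than 1 on the log2 scale for Fmod (1.65), Clec14a (1.51), Malt1 (1.34), Ntrk3 (1.32), Prickle1 (1.30), Sema3a (1.25), Slc8a1 (1.24), Slc15a2 (1.16), Id2 (1.12), and Reep6 (1.02). It was higher by 0.5 to 1 for Prelp (0.95), Gstm1 (0.93), Slc7a5 (0.74), Il17rd (0.69), Ankrd1 (0.65), Adamts1 (0.64), Hbegf (0.56), Psph (0.55), Trib3 (0.54), Dusp4 (0.53), Ptgs2 (0.53), Rrp9 (0.53), Chac1 (0.52), and Dlk1 (0.51). Smaller differences in this direction were found for Plaur (0.50), Spry1 (0.50), Rrp12 (0.49), Shmt2 (0.47), Slc19a1 (0.46), Itgb5 (0.45), Pcca (0.45), Slc7a1 (0.45), Mfap3l (0.43), Prps1 (0.43), Vars1 (0.43), Arl4c (0.41), Atf5 (0.41), Egr1 (0.41), Srm (0.40), Ier2 (0.39), Mthfd2 (0.38), Wars1 (0.38), Gart (0.37), Heatr1 (0.37), Odc1 (0.36), Ddx21 (0.35), Ifit2 (0.35), Adamts5 (0.31), Mcm6 (0.30), Mcm2 (0.29), Tgfbr2 (0.28), Lmna (0.27), and Srf (0.26). 

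The response was lower with Inf by more than 1 on the log2 scale for Serpina3g (−2.79), Il13ra2 (−2.17), Serpina3f (−2.17), C3 (−2.12), Loxl2 (−1.97), Ccl2 (−1.91), Ccl7 (−1.81), Tnip3 (−1.74), Hlf (−1.67), Prl2c3 (−1.37), Sema3c (−1.32), Fabp4 (−1.14), Slc7a2 (−1.04), Abca1 (−1.02), and Pdgfra (−1.02). It was lower by 0.5 to 1 for Bcl3 (−0.98), Tlr2 (−0.96), Pid1 (−0.95), Ccn5 (−0.75), Ptgfr (−0.75), Cxcl12 (−0.72), Tgfbi (−0.71), Mmp9 (−0.70), Cp (−0.66), Angpt1 (−0.65), Tnfaip3 (−0.63), Angptl4 (−0.62), Il1rap (−0.62), Ccl5 (−0.59), Adamts7 (−0.58), Gdnf (−0.58), and Lox (−0.57). Smaller differences in this direction were found for Cxcl1 (−0.49), Map3k14 (−0.49), Hmox1 (−0.46), Osmr (−0.46), Nfkbia (−0.45), Shox2 (−0.45), Bnip3 (−0.44), Fgf7 (−0.42), Id3 (−0.42), Il6ra (−0.42), Postn (−0.42), Relb (−0.40), Nfkbie (−0.39), Mt1 (−0.37), Mmp2 (−0.36), Nqo1 (−0.34), Il4ra (−0.33), Fgf10 (−0.32), Nfkb1 (−0.32), Fth1 (−0.31), Gclm (−0.31), Col6a1 (−0.29), Ctsl (−0.29), Nsdhl (−0.29), Pdk1 (−0.29), Il13ra1 (−0.28), Sod2 (−0.28), and Dcn (−0.26). 

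For 2 genes without enough counts in control for a fold, the difference is given in CPM: Lbp (−6.30) and Serpina3i (5.67).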

How the results depend on the processing

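The counts depended on the thresholds. At a log2 size of 0.5, the interaction was called for 67 genes upward and 96 downward, with 83 enhanced, 33 attenuated, and 2 opposed, and at a log2 size of 1 for 17 and 23, with 15, 14, and 0. With no size threshold, 31 genes were opposed. At an adjusted p of 0.01, the calls were 129 and 148 on the log2 scale, 180 and 191 on the CPM scale, 183 enhanced, and 60 attenuated. With a mean of at least 50 counts, the interaction held 2.58% of the sum of squares. Each of these changes follows from the setting itself, a stricter or looser threshold or fewer genes.

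Leaving out 1 library in turn gave 159 to 331 genes upward and 183 to 322 downward on the log2 scale, 214 to 419 and 234 to 392 on the CPM scale, 228 to 434 enhanced, 72 to 105 attenuated, 8 to 13 opposed, 221 to 264 above both single treatments, and 169 to 232 below both. The highest log2 counts came without replicate 3 of Inf and the lowest without replicate 1 of IL-4/13 + Inf, and the cause was not tested. A replicate block gave 197 genes upward and 213 downward on the log2 scale, although same-numbered libraries did not deviate together. DESeq2 gave 212 and 229. No interaction of a named gene was reversed in any setting. Few counts without Inf limit the log2 scale for genes such as Saa3, Lcn2, Hp, and Lbp.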

Other observations

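Genes of ribosome production and of nucleotide and amino acid supply were another group with enhanced rises. The lists were made after these values were seen, so their counts are a description with no test. Of 52 ribosome biogenesis genes chosen by symbol, 14 were called upward on the log2 scale and 0 downward (26.9%, against 3.11% of all tested genes), with a median interaction of 0.205. Rrp12, a factor of ribosome export and assembly, had means of 41.3, 45.8, 25.2, and 39.1 CPM in the order control, IL-4/13, Inf, and the combination, and an interaction of 0.49 ± 0.10 (adjusted p = 0.0037 by edgeR's quasi-likelihood test). Its level fell with Inf and was back at the level of control with both treatments, where the libraries overlapped. Rrp9 (0.53), the nucleolar helicase Ddx21 (0.35), and Heatr1 (0.37) were also called.

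Of 19 tested genes of serine and folate metabolism, 9 were called upward and 0 downward (47.4%). Shmt2, which moves a carbon unit from serine to folate in mitochondria, had means of 330, 320, 224, and 301 CPM and an interaction of 0.47 ± 0.06 (adjusted p = 2.49e-06). Psph, of serine synthesis, was at 0.55, the folate carrier Slc19a1 at 0.46, and Mthfd2 at 0.38. Among 18 genes of purine and pyrimidine synthesis, 4 were called upward (22.2%), with Prps1 at 0.43 and Gart at 0.37, and among 20 cytosolic tRNA synthetases, 4 were called upward, with Vars1 at 0.43 and Wars1 at 0.38. On the CPM scale, Rrp12, Ddx21, and Prps1 were called in at most 4 of the 12 fits that left out 1 library.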
